A study of Mus musculus with 3 samples.

Results

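Capillary endothelial cells of the aged mouse hippocampus were described here from 140 single cells, out of 3764 endothelial cells and 8576 barcodes with at least 3000 UMIs (unique molecular identifiers, each standing for 1 captured RNA molecule) and at most 20% mitochondrial UMIs. An endothelial cell had UMIs of 3 or more of Cldn5, Flt1, Pecam1, Itm2a, Cdh5 and Ly6c1 and of at most 1 of Slc1a2, Aqp4, Cx3cr1, Vtn and Ccdc153. A member had no UMI of 6 arterial genes (Gkn3, Sema3g, Bmx, Vegfc, Egfl8, Stmn2) or 6 venous genes (Slc38a5, Ackr1, Lrg1, Il1r1, Vwf, Cyp2e1), and UMIs of at most 1 of 6 tip-cell genes (Angpt2, Adm, Plaur, Tnfrsf12a, Dll4, Trim16). The members were thus defined by genes they lacked, and the 29 genes of the rule were not tested in any comparison. Some are described, and the sums of astrocyte, microglial and pericyte markers below include Slc1a2, Aqp4, Cx3cr1 and Vtn. Replicates 1, 2 and 3 held 73, 10 and 57 members.

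The study profiled dissociated hippocampal cells of wild-type C57BL/6 mice, all in 1 group with an age label of 2 years, sequenced as 3 droplet libraries with 10x 3′ reagents. No treatment, transgene or younger group was among the samples, so every comparison was between kinds of endothelial cell within the same libraries. The title of replicate 3 carried an age of 25 months, and the series text names 6 hippocampi without tying animals to libraries. P-values therefore measure how far the differences between groups vary over these 3 libraries, a spread that may be technical. The members were set beside 1166 arterial-marker cells (UMIs of 2 or more arterial genes and at most 1 venous gene), 816 venous-marker cells (the reverse) and 215 tip-like cells (none of the 12 arterial and venous genes, 2 or more tip genes).

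In the brain, capillaries carry most of the blood-brain barrier: endothelial cells joined by tight junctions take up glucose, amino acids, lactate and iron from the blood through dedicated carriers and receptors. Their gene expression shifts gradually along the vessel from the arterial to the venous end, a pattern called zonation. Arterial cells are known for Notch signalling and elastic matrix, venous cells for leukocyte adhesion molecules, and capillary cells for transporters.

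Not all members carried an endothelial profile. Summed over Cldn5 (the main claudin of the barrier), Flt1 (a VEGF receptor), Pecam1, Itm2a, Cdh5 (VE-cadherin) and Ly6c1, 120 members held 15 to 283 UMIs, with a median of 72, while the other 20 held only 3 to 8 at a median depth of 5584.5 UMIs. Of those 20 cells, 18 had at least 10 UMIs of 3 or more markers of another class: 7 microglia, 6 astrocytes, 3 red blood cells, 3 pericytes, 2 oligodendrocyte precursors and 2 fibroblasts, some for more than 1 class. They made up 9 of 73 members in replicate 1, 7 of 10 in replicate 2 and 4 of 57 in replicate 3. Of the 120, called members with an endothelial profile below, 9 met the same limit for another class. These were 6 for red blood cells, 3 for astrocytes, 1 for microglia and 1 for platelets, some for more than 1 class. For the other 20 cells the label goes against the data. Each comparison below is therefore given over all members first and then restricted to cells with 10 or more pan-endothelial UMIs in every group, a limit chosen after these values were seen. The restricted comparison used 64 members of replicate 1 and 53 of replicate 3, because the 3 such members of replicate 2 were fewer than the 10 cells required for a summed profile.

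**Figure D1:**
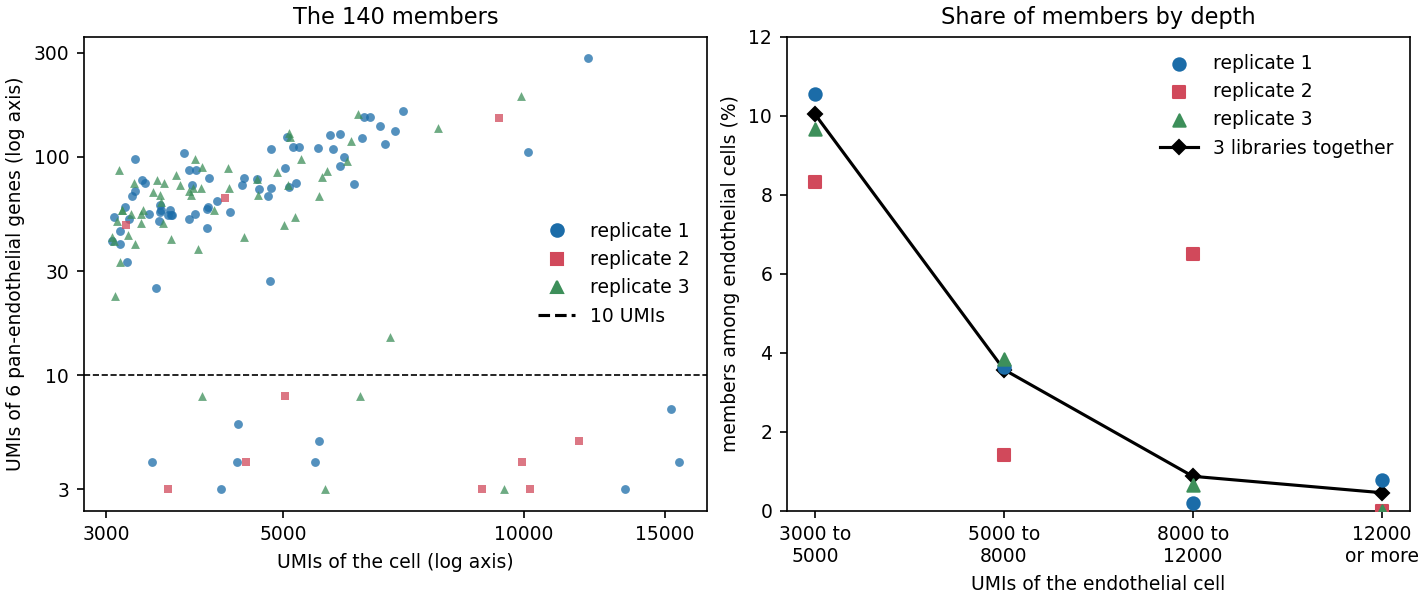
Left, the UMIs of each of the 140 members (log axis) against its UMIs over 6 pan-endothelial genes (log axis), with colour and shape for the library and a dashed line at 10. Right, members as a percent of endothelial cells in 4 depth classes, per library and over the 3 libraries together; 20 members lie between 3 and 8 pan-endothelial UMIs, and the share of members fell from 10.0% of the shallowest to 0.459% of the deepest endothelial cells.

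The 20 cells changed what other RNA the members seemed to hold. Over all members, 8 microglial markers took 0.219%, 0.729% and 0.194% of the UMIs in replicates 1, 2 and 3, against at most 0.0686% in the arterial-marker and 0.0485% in the venous-marker cells of any library. Among the 120 remaining members they took 0.0218%, 0.0299% and 0.0495%. The 7 pericyte markers took 0.593% of members' UMIs in replicate 2 and none of its 3 remaining members held any. The 8 astrocyte markers went from between 0.0709% and 0.124% to between 0.0240% and 0.0563%, near the 0.0268% to 0.0471% of arterial-marker cells. Haemoglobin did not follow the same line: 5 red-cell genes took 1.12%, 13.4% and 4.96% of all members' UMIs and still 1.38%, 0.102% and 3.20% after the restriction. Scrublet called 1, 0 and 3 members doublets, all of them with 10 or more pan-endothelial UMIs. No member's barcode was shared with a member of another library.

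Members were shallow cells. Their median depth was 4376, 6938.5 and 3909 UMIs in replicates 1, 2 and 3, against 8793.5, 10941 and 8380 in arterial-marker and 10798, 14200.5 and 8662 in venous-marker cells. The share of endothelial cells that met the rule was 3.51% (exact Clopper-Pearson 95% interval 2.76% to 4.39%), 3.15% (1.52% to 5.72%) and 4.18% (3.18% to 5.38%), a mean of 3.61% ± 0.519 (SD, n = 3 libraries). These intervals cover counting error only. The share was 10.0% among cells of 3000 to 5000 UMIs and 0.874% among those of 8000 to 12000. When every endothelial cell was thinned to 3000 UMIs and the arterial, venous and tip-cell conditions were applied again, 384 cells met them. The mean share per library was 11.1% ± 2.19 (SD, n = 3). A share under this rule thus describes cells in which 12 genes were not captured and gives no abundance of capillaries in the tissue.

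At the edge of the rule, 59 members had no tip gene and 81 had 1, while 67 cells with 2 tip genes stood just outside. A further 298 cells were outside only for 1 arterial or venous gene, which was Vwf (von Willebrand factor, stored in endothelial granules) in 183 of them. Pooled over libraries, Car4 stood at 767 CPM (a gene's UMIs per 1000000 UMIs of the cells) in members with no tip gene, 688 with 1, 615 in cells with 2 tip genes and 790 in those with 1 arterial or venous gene. Cldn5 stood at 4018, 4472, 3723 and 5188 CPM in the same 4 sets. The cells just outside the rule thus held both genes at levels above and below those of all members. These member values include the 20 cells with 3 to 8 pan-endothelial UMIs, which held 150689 of the members' 694391 UMIs. Levels without those cells were not compared here.

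The markers named for capillary cells were measured first, as a description. Car4 encodes carbonic anhydrase 4, an enzyme on the luminal face of capillaries (chromosome 11, 84957786 to 84966044, plus strand, mm10, protein-coding). It stood at 686, 582 and 808 CPM in the members of replicates 1, 2 and 3, at 66.8, 99.3 and 58.02 in arterial-marker cells, 1079, 979 and 959.9 in venous-marker cells and 664, 338 and 513 in tip-like cells. Members lay above every arterial-marker library and below every venous-marker library. After thinning each cell to 3000 UMIs, Car4 had a UMI in 74.3% of all members, 84.2% of the 120 members with an endothelial profile, 12.95% of arterial-marker cells, 85.4% of venous-marker cells and 1.19% of 1677 microglia (median depth 8468, 8290.0 and 7892 UMIs by library), which should lack it. Unthinned, the shares were 77.1%, 87.5%, 24.01%, 95.7% and 2.86%.

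Slc7a5, the large neutral amino acid carrier (chromosome 8, 121881150 to 121907694, minus strand), stood at 621, 326 and 1079.9 CPM in members, 307, 292 and 441 in arterial-marker and 598, 669 and 759 in venous-marker cells. Cxcl12, a chemokine made by capillary endothelium (chromosome 6, 117168535 to 117181367, plus strand), stood at 3079.5, 965 and 3571 CPM in members and at 3725 and 3953 CPM in the members of replicates 1 and 3 with 10 or more pan-endothelial UMIs. It stood at 2039, 2108 and 2129 in arterial-marker, 2009, 2227 and 1813 in venous-marker and 2964, 1384 and 2096 in tip-like cells. Replicates 1 and 3 were thus above, and replicate 2 below, every arterial-marker and venous-marker library. Stra6, the receptor that takes up retinol bound to its carrier protein (chromosome 9, 58063788 to 58153996, plus strand), stood at 173, 85.1 and 248 CPM in members, 215, 178 and 317 in arterial-marker, 108, 188 and 190.2 in venous-marker and 221, 113 and 301 in tip-like cells. Its libraries overlapped in all 4 groups, and it passed the test in no comparison.

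**Figure D2:**
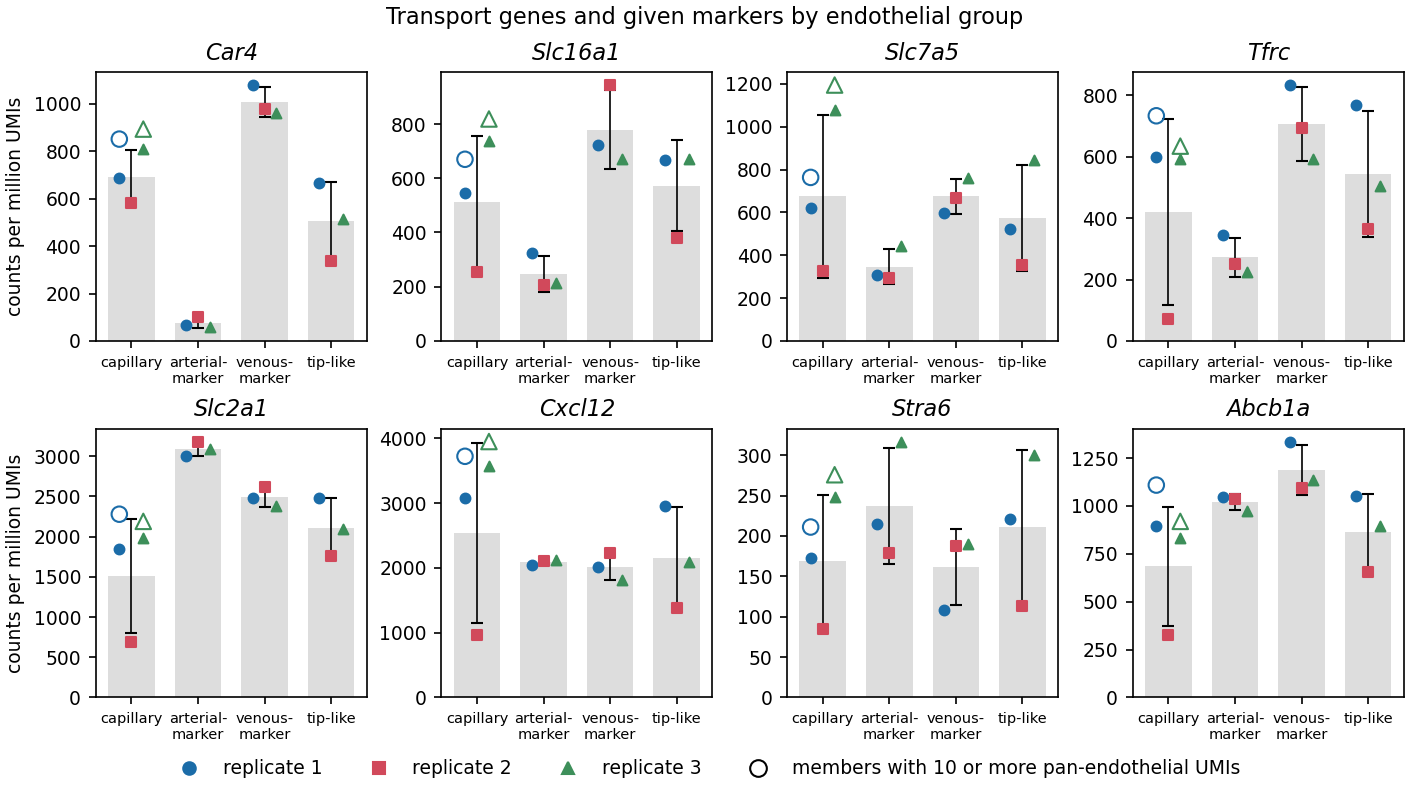
Level in CPM of 8 genes in the 4 endothelial groups; grey bars and whiskers give the mean ± SD over 3 libraries, filled symbols each library, and open symbols the members of replicates 1 and 3 with 10 or more pan-endothelial UMIs. Car4 is low only in arterial-marker cells among the 4 groups, and replicate 2 (7 of whose 10 members held under 10 pan-endothelial UMIs) is the lowest library of the members in all 8 panels.

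Against arterial-marker cells, members had more Car4 and more of the carriers Slc16a1, Slc7a5 and Slc22a8, and less of most arterial-side genes, of Hey1, Notch1, Jag1 and Jag2, and of the MHC class I genes H2-K1, H2-D1 and B2m. At an adjusted p below 0.05 (edgeR, quasi-likelihood, Benjamini-Hochberg), 397 of 8838 genes stood higher in members (4.49% of genes tested) and 467 lower (5.28%). In the restricted comparison 144 of 8826 were higher (1.63%) and 348 lower (3.94%). Of the 397 higher genes, 300 were tested again in the restricted comparison and 74 passed there, while 281 of the 467 lower genes did. Of the 300 higher genes, 33 had the opposite sign there, and of the 467 lower genes 0. The median log2 change over all genes tested was near 0 in both fits. Counts per gene list, here and in the later comparisons, are to be read beside the shares over all genes of the same comparison.

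The arterial-side list holds 25 genes outside the rule that are known to rise towards arteries, and since the rule itself selected against arterial genes, its counts describe what came with the rule. Of 23 tested, 19 were lower in members and 1 was higher, with a median log2 change of -1.70 beside 0.00 over all genes. In the restricted comparison 20 were lower and 0 higher, with a median of -1.41. When groups were chosen on one random part of each cell's UMIs and tested on the other, 21 of 22 were lower, where 7.03% of all 7230 genes tested were.

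Hey1, a transcription factor switched on by Notch (chromosome 3, 8663359 to 8667256, minus strand), stood at 27.01, 14.2 and 19.7 CPM in members and 283, 425 and 259 in arterial-marker cells. Its log2 change was -3.73 ± 0.30 (SE; adjusted p = 4.19e-07), and the libraries of the 2 groups did not overlap. Mgp, the matrix Gla protein that limits calcification of arterial walls (chromosome 6, 136872435 to 136875823, minus strand), stood at 27.01, 227 and 11.8 CPM in members and 1960.0, 679.5 and 2092 in arterial-marker cells, a log2 change of -5.29 ± 0.68 (SE; adjusted p = 5.17e-05). Its highest member library was replicate 2, and among members with an endothelial profile it stood at 10.05 and 8.75 CPM in replicates 1 and 3, a log2 change of -7.85 ± 0.44 (SE). Alpl, the alkaline phosphatase of the arterial and capillary lumen (chromosome 4, 137741733 to 137796384, minus strand), was only partly reduced: 116, 70.9 and 114 CPM in members against 394, 302 and 498, a log2 change of -1.95 ± 0.18 (SE; adjusted p = 1.24e-06). The cadherin Cdh13 (-3.34), the membrane protein Tm4sf1 (-2.25), the arterial ephrin Efnb2 (-1.73), the gap-junction protein Gja4 (-3.30), Lrrc32, which holds latent TGF-beta on the cell surface (-4.06), and Lypd1 (-4.35) fell too, given as log2 changes.

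Some arterial genes had no UMI in any member. Igfbp3, which binds insulin-like growth factors, stood at 135, 95.6 and 66.1 CPM in arterial-marker cells, so that against a floor of 3 UMIs over all members it was at least 25.1-fold lower in members. On the same floor the matricellular protein gene Nov was at least 13.1-fold lower, Nos1 (neuronal nitric oxide synthase) at least 11.5-fold and Pi16 at least 8.63-fold. Each of these genes passed the test in both fits.

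Of 12 Notch pathway genes tested, 5 were lower in members and 0 higher (median log2 change -0.54), and 4 were lower in the restricted comparison: the receptor Notch1, the ligands Jag1 and Jag2, and Hey1. Notch1 stood at 113, 199 and 118 CPM in members and 293, 205 and 219.6 in arterial-marker cells, with a log2 change of -0.96 ± 0.21 (SE; adjusted p = 0.00614), and every member library lay below every arterial-marker library. Jag2 stood at 97.2, 0 and 122 against 225, 231 and 274 CPM (-1.39 ± 0.27, adjusted p = 0.00229) and Jag1 at 37.8, 70.9 and 43.4 against 95.6, 125 and 92.6 CPM (-1.19 ± 0.24, adjusted p = 0.00289). Notch1, Jag1 and Jag2 did not pass without replicate 1, nor Notch1 without replicate 3. Among 27 endothelial transcription factors, 10 were lower and 1 higher (restricted, 7 and 1). Sox7 (-1.63), Sox18 (-1.09) and Epas1, the hypoxia-inducible factor of endothelium (-1.08), were lower, and Nr2f2 (COUP-TFII), which specifies veins, was the higher one with 37.8, 156 and 19.7 CPM against 9.01, 7.36 and 6.24 and a log2 change of 2.46 ± 0.51 (SE; restricted, 1.79 ± 0.44). Replicate 2 was the highest member library for Nr2f2.

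Transporters did not move as 1 block. Of 17 carriers of amino acids, glucose and monocarboxylates tested, 4 were higher and 3 lower in members than in arterial-marker cells (median log2 change 0.41), and in the restricted comparison 5 of 16 were higher and 3 lower (median 0.28). Slc16a1, the lactate and ketone carrier MCT1 (chromosome 3, 104638668 to 104658462, plus strand), stood at 546, 255 and 737 CPM in members and 324, 206 and 213 in arterial-marker cells; its log2 change was 1.10 ± 0.27 (SE; adjusted p = 0.0142) over all members and 1.56 ± 0.20 (SE; adjusted p = 2.73e-05) in the restricted comparison. Slc7a5 rose by 0.95 ± 0.22 (SE; adjusted p = 0.00837) and by 1.39 ± 0.13 in the restricted comparison. The glutamine carrier Slc38a3 stood at 170.2, 56.7 and 252 against 87.98, 68.04 and 113 CPM and rose by 0.97 ± 0.26 (SE; adjusted p = 0.0205).

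The carriers Slc2a1, Slc6a6 and Slc38a2 went the other way. Slc2a1, the glucose carrier GLUT1, stood at 1845, 695 and 1983 CPM in members and 3000.2, 3181 and 3091 in arterial-marker cells, with no overlap and a log2 change of -1.06 ± 0.25 (SE; adjusted p = 0.00955). Without the 20 cells it stood at 2278 and 2189 CPM in replicates 1 and 3, and its change of -0.45 ± 0.11 (SE; adjusted p = 0.0196) was smaller. Among restricted cells of at most 6000 UMIs in every group it was -0.38 with an adjusted p of 0.138, so it did not pass there. The taurine carrier Slc6a6 changed by -1.18 ± 0.27 (SE; adjusted p = 0.00731) over all members, by -0.57 ± 0.14 (adjusted p = 0.0179) in the restricted comparison and by -0.47 (adjusted p = 0.0799) among restricted cells of at most 6000 UMIs. The amino acid carrier Slc38a2 stood at 327, 227 and 225 CPM in members against 503, 574 and 513, without overlap (-0.97 ± 0.18, adjusted p = 0.00201; restricted, -0.72 ± 0.16, adjusted p = 0.0102).

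Among 16 carriers of hormones, vitamins, lipids and organic anions, 3 were higher and 1 lower (restricted, 3 and 0). Slc22a8, an organic anion carrier, stood at 321, 284 and 299.5 CPM in members and 154, 118 and 182 in arterial-marker cells, with no overlap (0.96 ± 0.19, adjusted p = 0.00248). The organic anion carrier Slco1a4 had a change of 0.00 ± 0.23 over all members (adjusted p = 1.0) and rose by 0.58 ± 0.12 in the restricted comparison (adjusted p = 0.00463). Mfsd2a, the lipid carrier that keeps transcytosis low, did not pass in either fit (0.06 and 0.49). Of 21 metal and ion transport genes 3 were higher and 5 lower; Slc39a8, a zinc and manganese importer, stood at 119, 85.1 and 110.4 against 50.9, 41.4 and 41.6 CPM with no overlap (1.24 ± 0.20, adjusted p = 0.000421).

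Of 10 ABC efflux pump genes tested over all members and 9 in the restricted comparison, 1 was higher in each fit. Over all genes tested 4.49% and 1.63% were higher, and 1 gene gives no result about the list. In the restricted comparison it was Abcg2 (0.58 ± 0.12, adjusted p = 0.00682), which over all members had a change of 0.03. Abcb1a, the P-glycoprotein pump, stood at 894, 326 and 832 CPM in members and 1048, 1036 and 971 in arterial-marker cells and did not pass in either fit (-0.57 ± 0.22 and -0.04 ± 0.12). Tfrc, the transferrin receptor, stood at 599.7, 70.9 and 591 CPM in members and 344, 249 and 225 in arterial-marker cells. It had a change of 0.73 ± 0.30 over all members (adjusted p = 0.157) and rose by 1.28 ± 0.13 in the restricted comparison (adjusted p = 2.79e-06). Over all members, replicate 2 lay below every arterial-marker library and replicates 1 and 3 above. In the list of 26 transcytosis and caveola genes, 1 was higher and 5 lower, or 3 and 2 in the restricted comparison, where the caveola genes Cavin3 (-0.85) and Ehd2 (-0.85) were the lower ones.

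Of 20 tight and adherens junction genes, 4 were lower over all members (median log2 change -0.42) and 1 in the restricted comparison (median -0.05), the junctional adhesion molecule F11r (-0.82 ± 0.19, adjusted p = 0.0105). Over all genes tested 5.28% and 3.94% were lower, so the restricted count is near that share. The scaffold protein gene Tjp1 had a change of -0.03 ± 0.17 (SE). In the Wnt list of 27 genes, 0 were higher and 4 lower over all members, and 3 were higher and 2 lower in the restricted comparison. The Wnt feedback inhibitors Nkd1 (1.05 ± 0.17, adjusted p = 0.000534) and Notum (0.99 ± 0.22, adjusted p = 0.00877) were among the higher ones; over all members their changes were 0.64 and 0.63 and did not pass. The VEGF receptor Kdr and the adrenomedullin receptor partner Ramp2 likewise passed only in the restricted comparison, at 0.57 ± 0.13 and 0.65 ± 0.13.

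Part of the MHC class I antigen presentation genes were lower in members than in arterial-marker cells. Of 18 tested, 9 were lower and 0 higher than in arterial-marker cells (median log2 change -0.67), and 8 were lower in the restricted comparison (median -0.59). Against venous-marker cells 3 were lower (restricted, 2), and against tip-like cells edgeR called 0 (6 lower at an unadjusted p below 0.05) and DESeq2 1. H2-K1, a heavy chain (chromosome 17, 33996017 to 34000347, minus strand), stood at 813, 439.8 and 1060.2 CPM in members and 1404, 1132 and 1595 in arterial-marker cells, with no overlap and a log2 change of -0.84 ± 0.19 (SE; adjusted p = 0.00786). The light chain B2m stood at 1707, 780.3 and 1352 against 2447, 1657 and 1865 CPM (-0.64 ± 0.20, adjusted p = 0.0488), and H2-D1 changed by -0.58 ± 0.13 in the restricted comparison. Reads of the near-identical H2 genes can be split between copies, so H2-Q4 (-1.05) and its relatives are uncertain. Summed over the 18 genes, the list took 0.556%, 0.288% and 0.555% of members' UMIs, 0.854%, 0.636% and 0.828% in arterial-marker, 0.752%, 0.650% and 0.707% in venous-marker and 0.621%, 0.546% and 0.689% in tip-like cells. Every member library lay below every library of the arterial-marker and venous-marker cells.

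**Figure D3:**
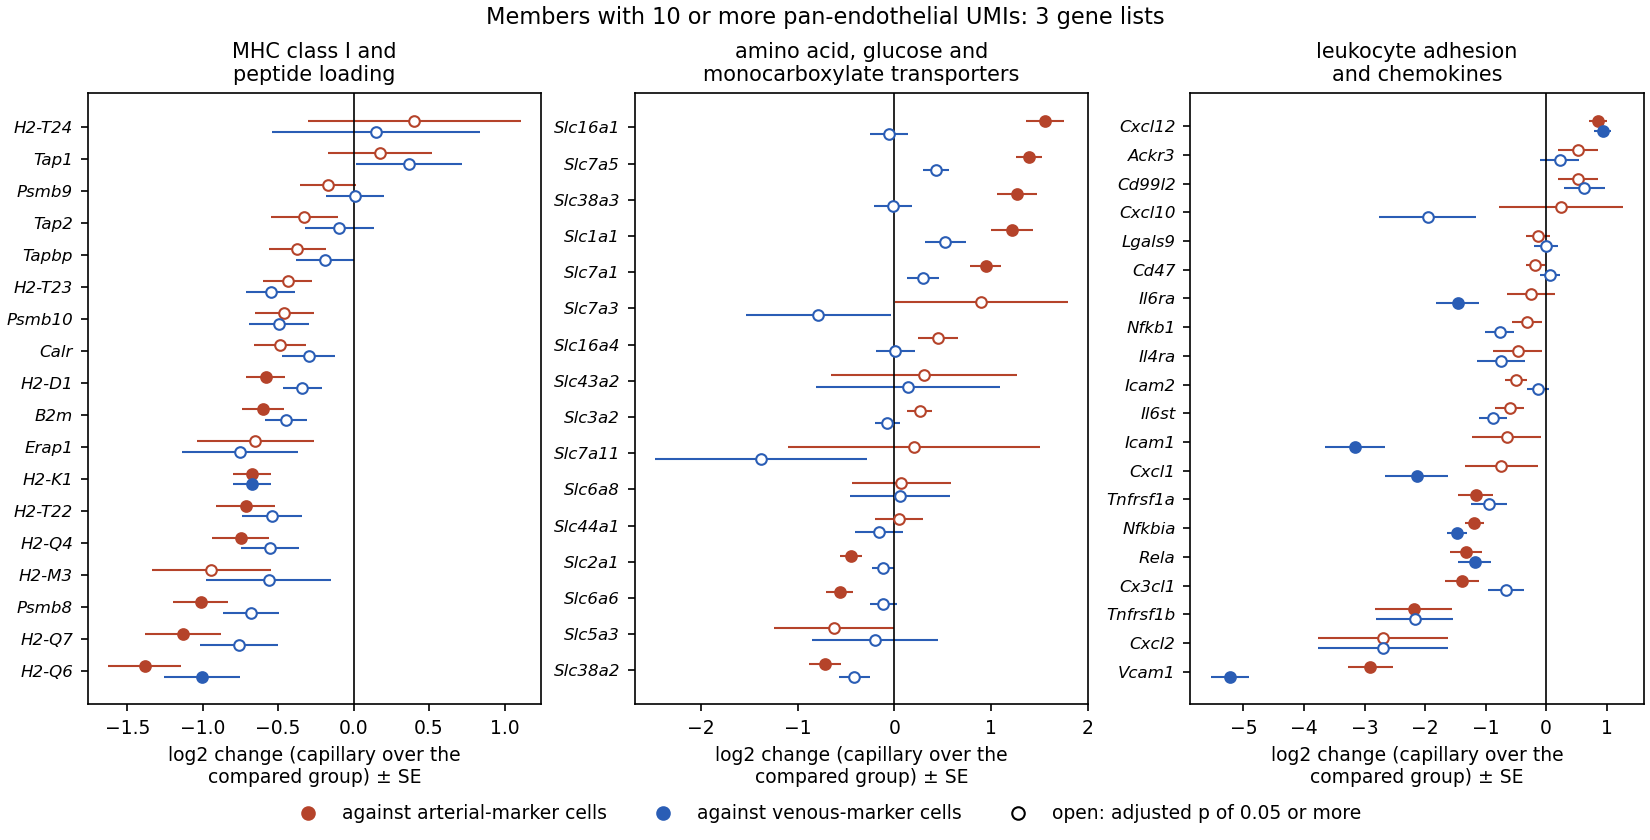
Log2 change ± SE of members with 10 or more pan-endothelial UMIs over arterial-marker cells (red) and venous-marker cells (blue) for the genes of 3 lists; filled points had an adjusted p below 0.05, and 1 adhesion gene with an SE above 1.5 (Sele) is not drawn. The class I genes lie mostly left of 0, the carriers on both sides, and Vcam1 far to the left.

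Of 33 interferon response genes, 7 were lower and 0 higher (restricted, 4 and 0), with Ifitm3, a viral entry inhibitor, at 940.1, 355 and 741 CPM in members and 2056, 1380.2 and 1957 in arterial-marker cells (-1.43 ± 0.18, adjusted p = 4.89e-05). Of 17 vasoactive genes, 7 were lower and 1 higher. Edn1 (endothelin 1) stood at 359, 0 and 209 CPM in members and 635, 676 and 576 in arterial-marker cells, and changed by -1.47 ± 0.33 (SE; adjusted p = 0.00699) over all members and by -0.91 ± 0.16 in the restricted comparison. Nostrin, which moves nitric oxide synthase off the membrane, rose by 0.66 ± 0.13 in the restricted comparison and had a change of 0.17 over all members. The cell cycle inhibitor Cdkn1a stood at 424, 56.7 and 343 against 1109, 956 and 589 CPM and was lower (-1.46 ± 0.31, adjusted p = 0.00559). The metallothioneins, which bind zinc and copper, were higher: Mt1 at 1218, 879.6 and 1269 against 442, 403 and 419 CPM (1.34 ± 0.21, adjusted p = 0.000393) and Mt2 by 1.47 ± 0.20. Among 33 cytosolic chaperones, 2 were higher and 0 lower (restricted, 3 and 0), where 4.49% of all genes tested were higher (restricted, 1.63%). Hspa1b, whose reads can be shared with Hspa1a, stood at 9919, 3178 and 4820.3 CPM in members and 5126, 5177 and 3646 in arterial-marker cells and passed only in the restricted comparison (0.85 ± 0.16).

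Among called genes at 50 CPM or more on one side, without predicted genes and the marker genes of other cell types, the 10 highest log2 changes over all members were those of Nupr1 (6.09), Apod (4.69), Olig1 (4.25), Coro1a (4.14), Selplg (4.10), Xylt1, Crybb1, Gria2, Myc and Rgs1. Olig1 is a transcription factor of the oligodendrocyte lineage, Gria2 a glutamate receptor subunit of neurons and precursors, and Coro1a, Selplg and Rgs1 are leukocyte genes. Apod went from 3744, 70.9 and 67.00 CPM over all members to 157 and 74.4 CPM in replicates 1 and 3 under the restriction, and its log2 change to 1.86 ± 0.27. Nupr1 stood at 397, 142 and 3.94 CPM in members and at 3.35 and 4.38 CPM in the members of replicates 1 and 3 with 10 or more pan-endothelial UMIs, too low to be tested there. Coro1a and Selplg did not pass in the restricted comparison (adjusted p = 0.628 and 0.292), whereas Olig1 did, at 63.6 and 26.3 CPM and a log2 change of 2.48 ± 0.47. Among genes called in both fits were, besides Car4, the secreted factor Ndnf (116, 0 and 166 CPM in members against 28.4, 19.3 and 32.3), the actin-binding Tmsb10 (937, 752 and 930.2 against 214, 308 and 176), the apoptosis regulator Bok (135, 42.6 and 154 against 40.8, 47.8 and 35.9) and the matrix gene Hmcn1 (249, 70.9 and 390.2 against 86.6, 103 and 110.0). Their restricted log2 changes were 2.47, 2.16, 2.10 and 1.94, and Car4 had 3.64 ± 0.17 (SE; adjusted p = 7.43e-11). Of the 50 genes named for this comparison that passed over all members, 17 passed without replicate 1, 50 without replicate 2 and 39 without replicate 3, and none changed sign. Car4, Hey1, Alpl, Tmsb10 and Ifitm3 passed each time, whereas Slc7a5, Slc16a1, Slc38a2, Slc38a3, Notch1, H2-D1, B2m, Edn1, Hmcn1, Cavin3 and F11r passed neither without replicate 1 nor without replicate 3. Slc2a1, Slc22a8, Jag1, Jag2, H2-K1 and Mgp were among those that did not pass without replicate 1. Among cells of at most 6000 UMIs, 38 of the 43 tested passed, and Slc2a1, Jag1, Epas1, Nr2f2 and F11r did not.

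Against venous-marker cells, members had less of the leukocyte adhesion genes Vcam1 and Icam1 and of Lcn2 and more Alpl, Clu and Efnb2, while Car4, Slc16a1 and Tfrc did not pass the test. Over all members 323 of 8838 genes were higher (3.65%) and 169 lower (1.91%); in the restricted comparison 43 of 8826 were higher (0.487%) and 85 lower (0.963%). Of the 323 higher genes, 232 were tested again and 31 passed in the restricted comparison, as did 62 of the 169 lower genes.

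Vcam1, the adhesion molecule that binds integrins of leukocytes (chromosome 3, 116109949 to 116129688, minus strand), stood at 45.9, 0 and 59.1 CPM in members and 949, 292 and 628 in venous-marker cells. Its libraries did not overlap, and its log2 change was -3.98 ± 0.30 (SE; adjusted p = 1.88e-07), or -5.23 ± 0.31 in the restricted comparison. Icam1, a second leukocyte adhesion molecule (chromosome 9, 21015985 to 21028817, plus strand), stood at 51.3, 28.4 and 118 CPM against 668, 779 and 560.2, again without overlap (-3.03 ± 0.46, adjusted p = 0.000378). After thinning, Vcam1 had a UMI in 5.83% of members with an endothelial profile, 32.6% of venous-marker cells and 28.0% of microglia, and Icam1 in 13.3%, 42.0% and 56.4%; unthinned, Vcam1 had one in 5.83%, 44.2% and 45.9% and Icam1 in 15%, 59.9% and 75.7%. Microglia are therefore no background for these genes, and their markers stood at 0.0274% to 0.0485% of UMIs in venous-marker cells. Sele (E-selectin) had no UMI in any member and 32.3, 10.8 and 19.3 CPM in venous-marker cells, at least 6.08-fold lower against a floor of 3 UMIs over the members. Of 22 adhesion and chemokine genes, 6 were lower and 1 higher (median log2 change -0.56), and in the restricted comparison 7 of 21 were lower and 1, Cxcl12, higher (0.93 ± 0.14, adjusted p = 0.00156). Over all members the Cxcl12 change was 0.26 ± 0.30 (adjusted p = 0.749). Against arterial-marker cells 6 of the 22 were lower and 2 higher (restricted, 6 and 1 of 21), with Vcam1 lower in both fits.

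Other genes were lower as well. The iron-binding lipocalin Lcn2 stood at 0, 0 and 11.8 CPM in members against 119, 22.8 and 138 in venous-marker cells (-4.74 ± 0.59, adjusted p = 5.5e-05), and Ch25h, which makes 25-hydroxycholesterol, at 5.40, 28.4 and 7.88 against 93.9, 33.6 and 81.7 (-3.22 ± 0.52, adjusted p = 0.00059). The prostaglandin synthase Ptgs2 (-1.97), the lysosomal protease Ctsc (-1.53), the co-receptor Nrp2 (-2.03), Wnt5a (-1.98), Sox7 (-2.04), Cdkn1a (-1.49) and H2-K1 (-0.85) were lower too. Of these, Wnt5a, Cdkn1a and H2-K1 did not pass among cells of at most 6000 UMIs, with or without the limit of 10 pan-endothelial UMIs. Tmsb10, higher than in arterial-marker cells, was lower than in venous-marker cells, at 2042, 2514 and 1888 CPM there (-1.25 ± 0.20, adjusted p = 0.00059). Nr2f2 stood at 121, 71.6 and 93.6 CPM in venous-marker cells; its change was -1.23 ± 0.36 (adjusted p = 0.0565) over all members and -1.93 ± 0.30 (adjusted p = 0.00156) in the restricted comparison. In the venous-side list of 23 genes tested, 11 were lower and 1 higher (median -0.99 beside -0.02 over all genes; restricted, 10 and 0 of 22), again a list that follows what the rule selected on. Against arterial-marker cells 6 genes of this list were higher, Car4 and Slc16a1 among them, and 4 lower. Vcam1 and Ch25h were among the lower ones in both fits.

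**Figure D4:**
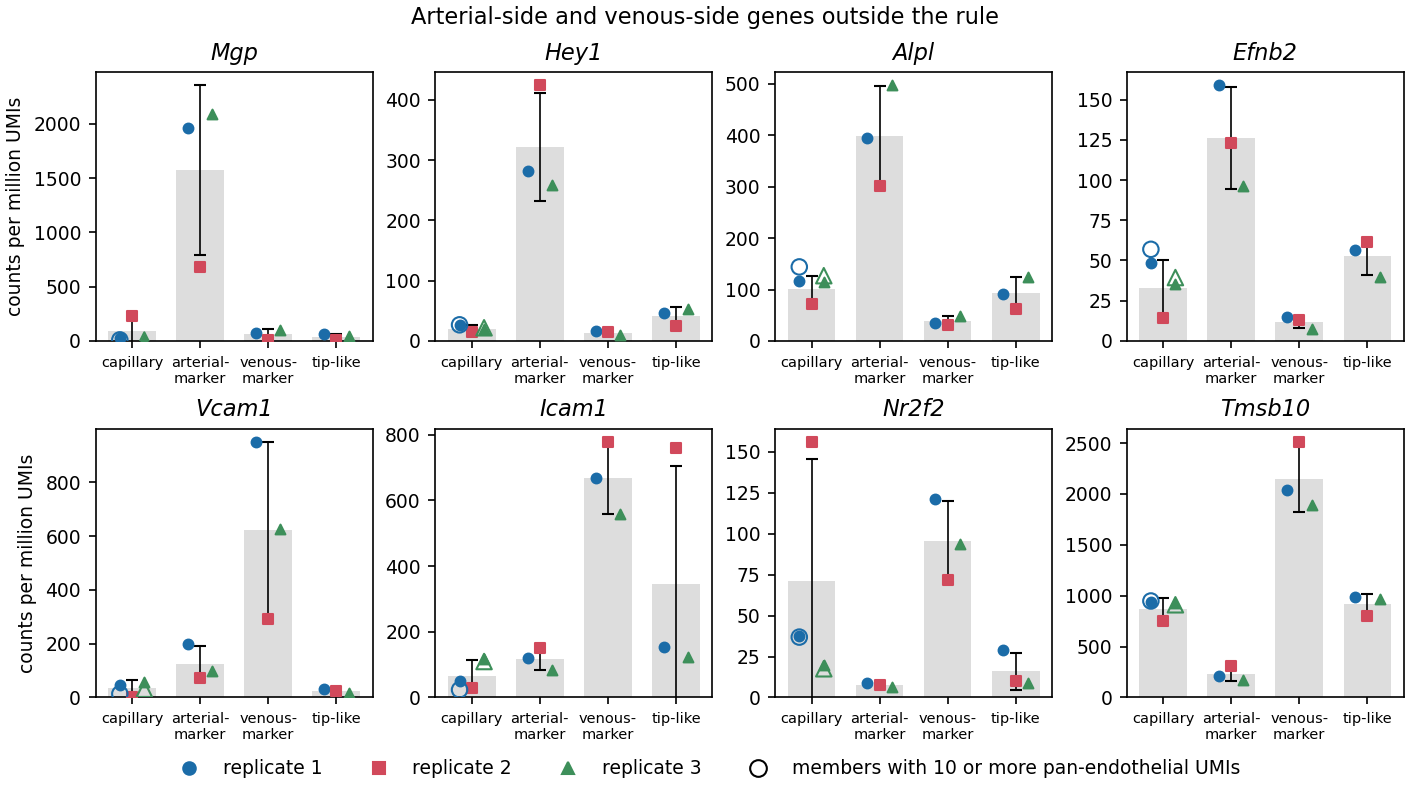
Level in CPM of 4 arterial-side genes (top) and 4 venous-side genes (bottom) in the 4 endothelial groups; bars and whiskers give the mean ± SD over 3 libraries, filled symbols each library, and open symbols the members of replicates 1 and 3 with 10 or more pan-endothelial UMIs. The members' libraries overlap those of venous-marker cells for Mgp, Hey1, Efnb2 and Nr2f2 and those of arterial-marker cells for Icam1. They lie between both groups for Alpl and Tmsb10.

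On the higher side, Alpl stood at 116, 70.9 and 114 CPM in members and 34.2, 30.4 and 49.2 in venous-marker cells, without overlap (1.48 ± 0.21, adjusted p = 0.000144). Every member library thus lay above every venous-marker library and below every arterial-marker library. Clu (clusterin) stood at 276, 128 and 339 against 60.9, 39.05 and 109 CPM, without overlap (1.90 ± 0.24, adjusted p = 6.06e-05; restricted, 1.25, adjusted p = 0.0255). With every group further limited to cells of at most 6000 UMIs, Clu did not pass (0.23, adjusted p = 0.88). Efnb2 (1.73), the netrin receptor Unc5b (1.61) and Rgcc (0.70) were higher, and each passed in the restricted comparison as well. For Efnb2 the libraries of members and venous-marker cells overlapped. Efnb2, Unc5b and Rgcc did not pass without replicate 1, without replicate 3 or among cells of at most 6000 UMIs. Of 23 arterial-side genes 6 were higher and 0 lower over all members (median 0.70), and 6 were higher and 1, Mgp, lower in the restricted comparison (-3.07 ± 0.65, adjusted p = 0.0182). The Mgp change over all members was -0.55 ± 0.77 (adjusted p = 0.807), with 27.01, 227 and 11.8 CPM in members and 74.1, 5.42 and 105 in venous-marker cells.

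None of the 4 given markers outside the rule passed the test against venous-marker cells over all members, and Cxcl12, given above, passed in the restricted comparison. The log2 change of Car4 was -0.52 ± 0.22 (SE; adjusted p = 0.227), that of Slc7a5 -0.03 ± 0.22 (adjusted p = 0.973) and that of Stra6 0.22 ± 0.26 (adjusted p = 0.766). The carrier Slc16a1 had -0.57 ± 0.27 (adjusted p = 0.306) and Tfrc -0.65 ± 0.30 (adjusted p = 0.274). In the restricted comparison Car4, Slc7a5, Slc16a1, Tfrc and Stra6 had -0.17 ± 0.16, 0.43 ± 0.13, -0.06 ± 0.20, -0.08 ± 0.13 and 0.60 ± 0.22, none of which passed. Of 17 carriers of amino acids, glucose and monocarboxylates, 0 were higher and 1, Slc38a2, lower over all members (-0.67 ± 0.18, adjusted p = 0.0381), and of 16 tested in the restricted comparison 0 and 0; the median changes were -0.21 and -0.07. Abcb1a passed over all members (-0.76, adjusted p = 0.0467) and not in the restricted comparison (-0.24, adjusted p = 0.453).

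The highest changes against venous-marker cells included the chemokine Ccl2 (1205, 3632 and 3.94 CPM in members, 5.90, 3.25 and 3.05 in venous-marker cells), the oligodendrocyte-lineage gene Bcas1 (78.3, 156 and 19.7 against 0.694, 1.08 and 1.02) and Olig1 (5.02; restricted, 3.25). Ccl2 stood at 10.05 and 0 CPM in the members of replicates 1 and 3 with 10 or more pan-endothelial UMIs, and the small heat shock protein Cryab, called in both fits, at 13.4 and 52.5 CPM. The 4 precursor-cell markers took 0.00536% and 0.00525% of the UMIs of those members against at most 0.000644% in venous-marker cells. The part of such RNA in the higher calls was not tested. Of the 24 genes named for this comparison that passed over all members, 9 of 23 tested passed without replicate 1, 24 without replicate 2 and 17 without replicate 3, with no change of sign. Vcam1, Lcn2 and Clu passed each time, and Icam1, Alpl, Tmsb10 and H2-K1 did not without replicate 1.

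Tip-like cells met the same rule as members except that they held 2 or more of the tip-cell genes. Members and tip-like cells were thus told apart by tip-cell genes alone, and the differences below, the immediate early genes included, describe what came with the rule. Members had less Ifrd1, Kdm6b, Epha2 and Slc38a2 and more Id1. Over all members 43 of 8838 genes were higher (0.487%) and 65 lower (0.735%), and in the restricted comparison 8 of 8826 (0.0906%) and 70 (0.793%). Of the 37 higher genes tested again, 2 passed in the restricted comparison, as did 47 of the 65 lower ones. The tip-like cells held microglial markers at 0.248%, 0.892% and 0.273% of UMIs in replicates 1, 2 and 3, beside 0.219%, 0.729% and 0.194% in all members. The restriction removed 6 of the 215 tip-like cells, and the part of microglial RNA in this comparison was not tested.

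Ifrd1, a transcriptional co-regulator induced by growth and stress signals (chromosome 12, 40201567 to 40248504, minus strand), stood at 246, 241 and 94.6 CPM in members and 708, 697 and 274 in tip-like cells, a log2 change of -1.68 ± 0.21 (SE; adjusted p = 0.00264). Members were lower than tip-like cells in all 3 libraries. The histone demethylase gene Kdm6b stood at 103, 454 and 55.2 against 385, 697 and 217 CPM (-1.63 ± 0.27, adjusted p = 0.0107), and the ephrin receptor gene Epha2 at 21.6, 28.4 and 11.8 against 83.5, 118 and 39.8 CPM (-2.09 ± 0.37, adjusted p = 0.0137). The nuclear receptor Nr4a2 (-1.52), the growth factor Hbegf (-1.48), the NF-kB subunit Rel (-1.73), the kinase Pim1 (-1.68), the pseudokinase Trib1 (-1.47), Egr3 (-1.48), Emp1 (-1.78), Sox7 (-1.79) and Cdc42ep3 (-1.68) were lower too, and each passed in the restricted comparison.

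**Figure D5:**
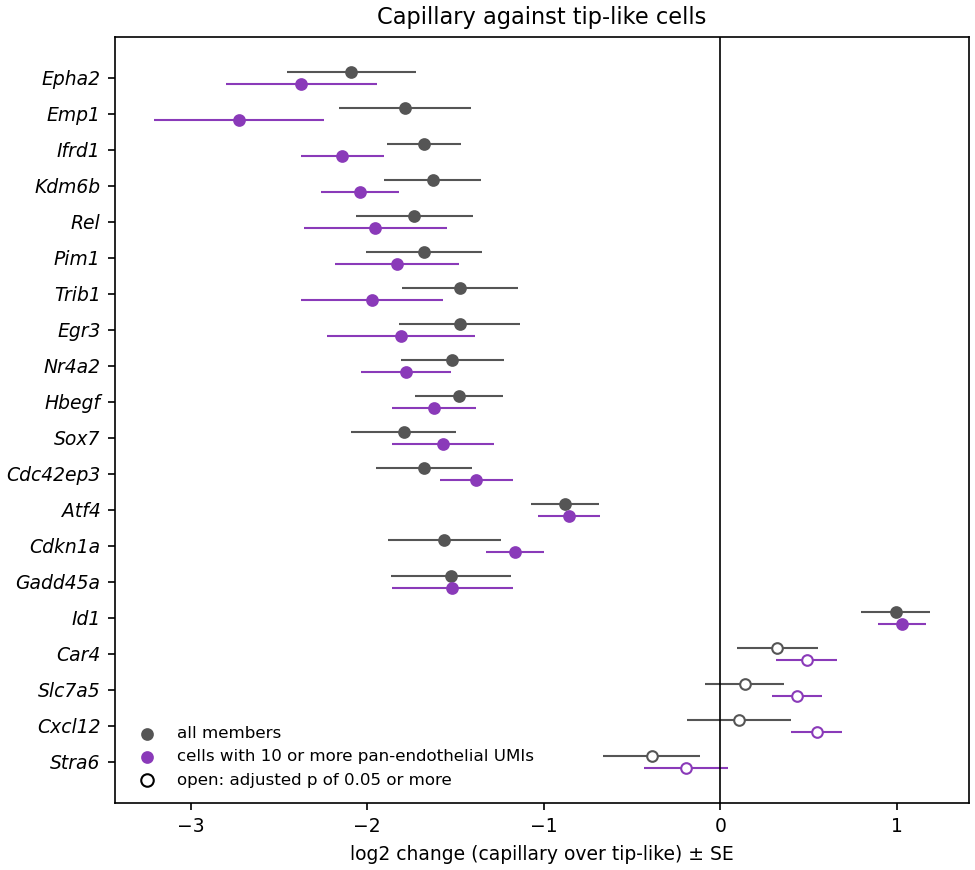
Log2 change ± SE of capillary over tip-like cells for the genes named in the comparison, over all members (grey) and in cells with 10 or more pan-endothelial UMIs (purple); filled points had an adjusted p below 0.05. The genes from Epha2 to Gadd45a, drawn because they were called lower, lie left of 0 in both, Id1 lies right of it, and the 4 given markers did not pass.

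Of 32 immediate early and dissociation genes, 4 were lower and 0 higher (median log2 change -0.38), and in the restricted comparison 8 of 31 were lower. The same list had 9 lower and 2 higher genes against arterial-marker cells (restricted, 9 and 1) and 6 and 2 against venous-marker cells (restricted, 5 and 0). Such genes are also induced while tissue is digested. The stress regulators Atf4 (303, 269.6 and 292 CPM in members, 549.9, 446 and 469 in tip-like cells; -0.88 ± 0.19, adjusted p = 0.0335), Cdkn1a (424, 56.7 and 343 against 1084, 784 and 712; -1.56 ± 0.32, adjusted p = 0.0241) and Gadd45a (-1.53) were lower. Id1, a target of BMP signalling, stood at 1245, 951 and 1037 CPM in members and 659, 246 and 593 in tip-like cells, with no overlap, and was higher (0.99 ± 0.19, adjusted p = 0.0226; restricted, 1.03 ± 0.13, adjusted p = 0.000797). Id1 and Olig1 were the 2 genes called higher in both fits; Olig1 stood at 108, 908 and 23.6 CPM in members and 8.56, 15.4 and 4.42 in tip-like cells, and Bcas1, called over all members only, at 78.3, 156 and 19.7 CPM in members with no UMI in tip-like cells. Against venous-marker cells Id1 passed only in the restricted comparison (0.68), and Ramp2 did so against tip-like cells (0.66). The given markers did not pass: Car4 had a change of 0.32 ± 0.23, Slc7a5 of 0.14 ± 0.22, Cxcl12 of 0.10 ± 0.29 and Stra6 of -0.39 ± 0.28. Slc16a1 (-0.22 ± 0.28) and Tfrc (-0.37 ± 0.31) did not pass either. The carrier Slc38a2 stood at 575, 672 and 473 CPM in tip-like cells, above every member library (-1.19 ± 0.19, adjusted p = 0.00998; restricted, -1.01 ± 0.17, adjusted p = 0.00589). Of the 19 genes named for this comparison that passed over all members, 0 passed without replicate 1, 19 without replicate 2 and 8 without replicate 3, with no change of sign. Among cells of at most 6000 UMIs, 13 of the 17 tested passed, and Epha2, Rel, Pim1 and Egr3 did not. Without replicate 1 edgeR called 0 genes in either direction, with 164 higher and 350 lower at an unadjusted p below 0.05; DESeq2 on all libraries called 20 and 110.

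Among themselves, the 120 members with an endothelial profile were compared after thinning to 3000 UMIs, as a description. Car4 had a UMI in 101 of them and Alpl in 33: 26 held both, 75 Car4 alone, 7 Alpl alone and 12 neither. Mgp had a UMI in 4, all with Car4. Car4 and Slc16a1 were found together in 74 cells and neither in 5. The 24 arterial-side genes gave a median of 12 UMIs per cell and the 25 venous-side genes 23, with 10th to 90th percentiles of 6.9 to 23 and 13 to 37. The venous-side list includes Car4, Slc16a1 and Tfrc, and the arterial-side list Alpl, so these sums do not place the members along the vessel.

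Stress genes varied among the members. The 33 chaperones gave a median of 178.5 UMIs per cell in replicate 1, with 10th to 90th percentiles of 76.4 to 294.4, and of 92 in replicate 3, with 30.6 to 155. Hspa1a alone had a median of 41 and 22 UMIs in these libraries and none in 1 and 3 cells. The 32 immediate early genes gave medians of 134.5 and 102. Class II genes, which professional antigen-presenting cells use, had no UMI in 115 of the 120 cells. Over all members, the genes with the highest variance relative to the mean in all 3 libraries were the haemoglobin genes Hbb-bs, Hba-a1, Hba-a2 and Hbb-bt, followed by Malat1, Hspa1a, Hspb1, Cst3, C1qb and C1qa; Cst3 and the C1q genes are abundant in microglia.

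Clustering all 140 members on one random part of their UMIs, without the rule's genes, gave 5 subclusters of 45, 40, 37, 11 and 7 cells, described on the other part with no test. Subclusters 4 and 5 held 12 of the 20 cells under 10 pan-endothelial UMIs. The first was led by Olig1, Gria2, Bcas1 and Ptprz1, genes of oligodendrocyte precursors, and the second by C1qc, Ctss, C1qa and Cx3cr1, genes of microglia. Subclusters 1 to 3 held median pan-endothelial counts of 66, 70.5 and 75 UMIs. Subcluster 2 was led by genes that include Ddit3, Apold1, Mafk and Fosb, which respond to stress, with Fosb at 1907 CPM against 475 in the other members. Subclusters 1 to 3 held 5, 1 and 2 of the cells under 10 pan-endothelial UMIs. Subcluster 1 was led by Ptgds (8237 CPM in replicate 1 and 19.5 in replicate 3) and Spp1 (1510 and 38.9 CPM), which were high in replicate 1, and subcluster 3 by Xcl1 and Ccl5; the leading genes of subcluster 3 include Nkg7 and Gimap4, which are known from lymphocytes. Car4 stood between 575 and 975 CPM in subclusters 1 to 3 in replicates 1 and 3, and the ranges of the subclusters overlapped.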

How the data were processed

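The deposited tables hold raw UMI counts per gene and cell barcode, which the authors made with Cell Ranger (release not given in the sources used here) and the mm10 genome, as the submitters' processing notes list them. Hippocampi were digested with papain and freed of myelin with beads, per the labels' protocols. The tables held 45716237, 7185668 and 40377042 UMIs in 7241, 1062 and 6456 barcodes of replicates 1, 2 and 3, each of at least 500 UMIs. Hyphens and leading digits of gene names were restored for 2411 of 31053 symbols, and 30531 were found in GENCODE M21 (mm10), which gave 1-based coordinates.

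The members, gene lists and tests were chosen with earlier results of these data known. UMIs were summed per library and group (at least 10 cells) and tested with edgeR 4.0.16 in R 4.3.3: TMM scaling, filterByExpr, quasi-likelihood test, library as a block because the groups of a library come from 1 suspension, Benjamini-Hochberg adjustment at 0.05. All 4 groups entered 1 fit with 6 residual degrees of freedom. Levels are the summed counts scaled to 1000000 UMIs (CPM), so low genes carry the counting error of few molecules. The test recovered known changes on simulated data. Scrublet in scanpy 1.11.5 (doublet rate 0.06) called 177, 8 and 147 barcodes doublets; they were kept, and left out as an alternative. Subclusters used leidenalg 0.10.2 at resolution 0.7.

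Genes were named by rule: per comparison the 10 highest and 10 lowest log2 changes among called genes of 1 sign in all libraries with 50 CPM or more in either group, without predicted genes or markers of other cell types; the given markers; and up to 6 genes per list. A few genes that the rule names are not reported here. Genes leading in both fits were added after seeing the data, and Alpl, Cavin3, Clu, Ctsc, Efnb2, F11r, Jag1, Jag2, Kdr, Mfsd2a, Mgp (venous comparison), Nkd1, Notum, Slc16a1 (venous and tip comparisons), Slc38a2, Slc38a3, Slc39a8, Sox18, Tjp1 and Unc5b were named after their values were seen. Alternatives covered scaling, filtering, DESeq2 1.42.0, no block, each library left out, thinning to 3000 UMIs, 5000 UMIs, 10% mitochondrial share, choosing and testing on separate UMIs, doublets, 3 tip genes, and, added after seeing the data, 10 pan-endothelial UMIs, at most 6000 UMIs, both together, and the removal of cells with RNA of another class.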

Additional observations from a re-analysis of the deposited data

How the results depend on the processing

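Counts of called genes are given as higher and lower in members against arterial-marker, venous-marker and tip-like cells in turn. They were 397 and 467, 323 and 169, and 43 and 65 as reported. Without a filter on low counts they were 677 and 822, 689 and 512, and 169 and 230. Without the library as a block (the pairing of groups within a library) they were 188 and 147, 159 and 22, and 0 and 0 by edgeR, the last with 348 and 411 at an unadjusted p below 0.05. Leaving out each library gave 72 to 470 and 55 to 624, 67 to 367 and 12 to 265, and 0 to 61 and 0 to 155, the lowest each time without replicate 1. Thinning cells to 3000 UMIs gave 166 and 247, 89 and 54, and 13 and 60. A minimum of 5000 UMIs gave 253 and 278, 217 and 101, and 12 and 18. Choosing and testing on separate UMIs gave 317 and 508, 154 and 214, and 23 and 188. DESeq2 gave 453 and 414, 392 and 155, and 20 and 110. A mitochondrial share of at most 10% left 26 genes higher than in tip-like cells, and 3 or more tip genes as the limit for tip-like cells gave 128 lower. Added after seeing the data, the limit of 10 pan-endothelial UMIs gave 144 and 348, 43 and 85, and 8 and 70; removing cells with RNA of another class 187 and 378, 93 and 127, and 13 and 88; cells of at most 6000 UMIs 123 and 213, 42 and 39, and 40 and 83; and both limits 103 and 210, 25 and 44, and 17 and 88. The cause of these moves was not tested, and some settings also leave fewer cells or libraries. The share of members among endothelial cells, as a mean over libraries, was 1.91% at 5000 UMIs and 11.1% after thinning. No gene named as called over all members changed sign in any of these settings in which it was tested. The depth limits low genes most: replicate 2 held 70486 UMIs in its 10 members, so 1 UMI there stands for 14.2 CPM.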
